A study of Mus musculus with 2 samples.

Results

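Memory and effector transcription factors are the subject here: 10 genes whose products set the naive, memory or effector state of T cells, measured in cultured mouse CD4 T cells. The genes are Tcf7, Lef1, Bach2, Bcl6, Satb1, Id2, Id3, Prdm1, Myb and Tox. They were chosen by name, with earlier results of these data known. Every probe set that the platform annotation assigned to exactly 1 of them was taken. Such a set combines several short probes against 1 transcript into 1 signal per array. In all, 9 of the 10 genes had 23 probe sets among the 45037 of the array. Tcf7 had no listed probe set and was not analysed here.

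CD4 T cells from spleens of wild type C57BL/6 mice were isolated with a magnetic cell sorter and stimulated with antibodies against the T cell receptor and CD28 for 2 days, then cultured for 3 more days. The CD103+ Th1 medium held 3 agents, 3 ng/ml of IL-4, 10 ng/ml of IFN-γ and 3 ng/ml of TGF-β. The Th1 medium held 1 ng/ml of IL-12 and 1 µg/ml of a blocking antibody to IL-4. CD103, the αE integrin chain, binds E-cadherin on epithelial cells. Each condition gave total RNA for 1 Affymetrix array. The labels name the culture conditions, mention no sorting on CD103 before harvest and do not give the number of mice. The 2 media differ in every added agent, so the effects of single agents cannot be told apart. With 1 array per condition no difference below has a replicate check, no test was made, and the precision is limited by the number of arrays.

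T cells that have left the naive state keep or lose the capacity to persist and divide again through a small set of opposing transcription factors. TCF-1, encoded by Tcf7, and LEF-1 are related high-mobility-group proteins that maintain naive and memory programs. BACH2 and BCL6 are repressors that restrain effector differentiation, and BLIMP-1, encoded by Prdm1, is a repressor that promotes terminal effector differentiation. BCL6 and BLIMP-1 repress each other's genes. ID2 and ID3 bind E proteins and keep them off DNA. In CD8 T cells ID2 is tied to effector cells and ID3 to long-lived memory cells. MYB and SATB1 act in thymocyte development and in mature T cells, and TOX acts in CD4 lineage development in the thymus and in exhausted T cells.

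Signals are linear, in arbitrary units, and each ratio is the signal of CD103+ Th1 over that of Th1. The median of all signals on the 2 arrays, 78.5, served as a floor, and dimmer values were raised to it. A probe set dimmer than the floor on 1 array therefore gives a bound ("at least"), and one dimmer on both gives no ratio. Where a gene had several probe sets, the measured one with the highest mean log2 signal stands for the gene. Of the members' 23 probe sets, 21 were measured, 1 of them on 1 array alone. Over the 11194 measured genes the median log2 ratio was -0.027, and the middle 90% of genes lay between -0.98 and 1.00.

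The members past 2-fold were Bcl6, Bach2, Myb and Prdm1, and the bases before their annotated starts are shown because these 4 genes carry the largest differences and because BCL6 and BLIMP-1 act on each other's genes. The sequences are from RefSeq (GRCm38.p6), 250 bases each, 5′ to 3′ on the gene's strand and ending 1 base before the start. Capitals mark letters that match 1 of 6 motifs on either strand, with no overlap between matches of different motifs. The motifs were TTCNNNGAA (bound by STAT and BCL6 type factors), GTAAACA (FOXO type), CTTTGAA (TCF and LEF type), CAGGTG (an E-box), CAGACA (SMAD type) and GAAAGTG (PRDM1 type). The intervals are chr16:23988853-23989102 and chr16:23981284-23981533 for the 2 starts of Bcl6, chr4:32417185-32417434 for Bach2, chr10:44458749-44458998 for Prdm1 and chr10:21160985-21161234 for Myb, on the minus strand except for Bach2. The starts of Bcl6, Bach2 and Prdm1 all lie inside the annotated genes, downstream of their first base, the first Bcl6 start only just so. That of Myb is the first base of its gene.
Bcl6, first start: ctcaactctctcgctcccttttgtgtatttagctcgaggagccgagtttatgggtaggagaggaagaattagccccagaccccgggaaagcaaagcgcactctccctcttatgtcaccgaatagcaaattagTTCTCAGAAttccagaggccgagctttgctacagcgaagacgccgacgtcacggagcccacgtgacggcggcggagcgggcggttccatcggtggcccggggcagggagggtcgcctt
Bcl6, second start: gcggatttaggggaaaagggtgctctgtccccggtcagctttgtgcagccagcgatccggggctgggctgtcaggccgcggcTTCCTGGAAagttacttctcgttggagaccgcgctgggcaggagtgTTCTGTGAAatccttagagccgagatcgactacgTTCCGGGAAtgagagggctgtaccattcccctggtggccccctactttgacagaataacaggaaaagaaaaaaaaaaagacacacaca
Bach2: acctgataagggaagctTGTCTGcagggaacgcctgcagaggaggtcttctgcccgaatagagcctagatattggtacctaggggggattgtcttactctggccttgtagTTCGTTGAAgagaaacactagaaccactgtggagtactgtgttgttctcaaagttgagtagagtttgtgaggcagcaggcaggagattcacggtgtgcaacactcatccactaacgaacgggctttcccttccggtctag
Prdm1: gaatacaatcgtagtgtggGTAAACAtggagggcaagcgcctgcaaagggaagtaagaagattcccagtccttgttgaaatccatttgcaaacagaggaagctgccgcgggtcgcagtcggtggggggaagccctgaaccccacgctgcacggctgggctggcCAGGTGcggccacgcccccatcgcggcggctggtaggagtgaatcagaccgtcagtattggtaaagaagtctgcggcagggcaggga
Myb: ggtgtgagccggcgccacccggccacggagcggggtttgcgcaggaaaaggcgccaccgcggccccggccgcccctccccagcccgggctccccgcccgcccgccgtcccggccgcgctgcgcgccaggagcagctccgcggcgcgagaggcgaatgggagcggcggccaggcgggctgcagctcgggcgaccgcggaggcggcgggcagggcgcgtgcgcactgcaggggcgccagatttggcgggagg

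The second Bcl6 start had 3 matches to TTCNNNGAA, at 168, 122 and 88 bases before the start, and the first Bcl6 start had 1, at 118 bases. Bach2 had 1 match to these letters, at 140 bases, and 1 to CAGACA, at 233 bases. Prdm1 had the letters GTAAACA at 231 bases and CAGGTG at 87 bases. Myb had no match to the 6 motifs, and its stretch was 81.2% G or C, against a median of 52.4% over all promoters. The table held 18 promoters for the members, among them 2 of Tcf7 and none of Tox. Of these 18, 3 held TTCNNNGAA, and they came from 2 genes, Bcl6 and Bach2, against 7.02% of all 32851 promoters. The first 2 Lef1 stretches overlap, as do the last 2 of Satb1, so the 18 are not independent. GTAAACA was in 1 of the 18 and in 3.17% of all, CAGGTG in 2 and in 17.2%, and CAGACA in 3 and in 17.1%. CTTTGAA and GAAAGTG were in 0 of the 18, and in 4.46% and 4.01% of all. These matches describe letters and no binding.

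The members did not move as 1 group. Bcl6 and Bach2 passed 2-fold upward in CD103+ Th1, and Myb and Prdm1 passed it downward. Id3 and Lef1 were higher by less than 2-fold, Satb1 and Id2 lower by less than 2-fold, and Tox was close to equal on both arrays. Thus 2 of the 9 measured members were past 2-fold upward, where 5.04% of all measured genes were (564 of 11194), and 2 downward, where 4.87% were (545 genes). The median log2 ratio of the 9 was -0.0049. The members were chosen with earlier results of these data known, so their counts are not independent evidence. Among the 21 measured probe sets 3 passed 2-fold upward and 5 downward, against 5.25% and 3.91% of the 24036 measured probe sets of the array. Of 6 members with over 1 measured probe set, Lef1, Bach2, Id2 and Myb had all of theirs in 1 direction, and Satb1 and Tox did not.

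**Figure D1:**
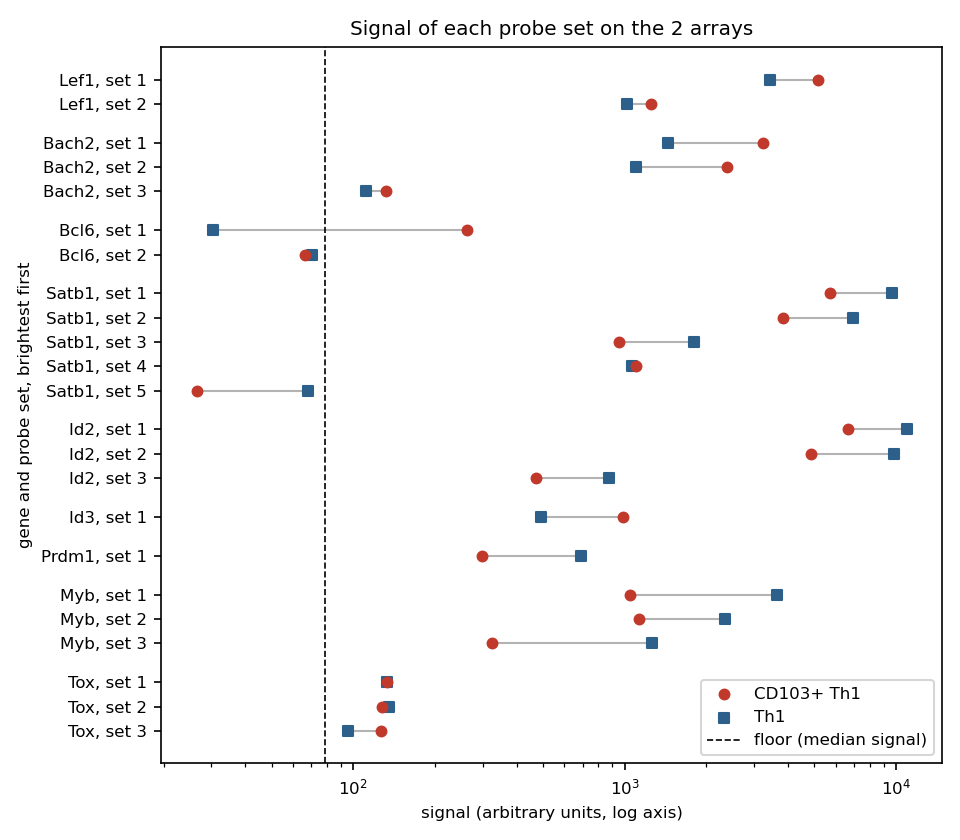
Signal of each of the 23 probe sets of the 9 members (rows, the brightest set of a gene first) on the CD103+ Th1 array (circles) and the Th1 array (squares), on a log axis in arbitrary units, with the floor of 78.5 as a dashed line. Circles lie to the right of squares for both Lef1 and all 3 Bach2 probe sets, and to the left for all 3 Id2 and all 3 Myb probe sets.

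Lef1, the TCF-1 relative that acts with it in naive and memory cells, was modestly higher in CD103+ Th1. Its brighter probe set had a signal of 5167 in CD103+ Th1 and 3435 in Th1, a log2 ratio of 0.59. The other had 1247 in CD103+ Th1 and 1022 in Th1, a log2 ratio of 0.29. Both sets pointed the same way, but 12.3% of all measured genes had a ratio as high as that of Lef1 or higher. Among genes for paralogs and cofactors of these factors, 3 of 10 measured passed 2-fold upward in CD103+ Th1 and 0 downward. Over all measured genes 5.04% passed upward and 4.87% downward. The median log2 ratio of the 10 was 0.30, against -0.027 over all genes. This list, too, was chosen with earlier results of these data known, so its lean is not independent evidence. Tle4, which encodes a Groucho-type corepressor that TCF proteins recruit, had 947 in CD103+ Th1 and 171 in Th1, 5.53-fold higher. Tle4 and Bcl9l each had 3 probe sets, of which only 1 was measured. Tle1, another corepressor gene, was 2.03-fold higher and the β-catenin cofactor gene Bcl9l 2.11-fold higher. Ctnnb1, which encodes β-catenin itself, was 1.36-fold higher. Not all of the list was raised, with 8 of the 10 above 0 on the log2 scale and 2 below. Tle3 and Tle5 were even, with log2 ratios of -0.044 and 0.00089 on their brightest sets. The 4 Tle3 sets ranged from -0.97 to 0.12. Ctnnbip1 was 1.33-fold lower.

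Among the repressors, both that restrain effector differentiation were higher in CD103+ Th1 and the one that promotes it was lower. This holds for the probe set that stands for each gene, and the limits for Bcl6 and Prdm1 are given below. Bach2, on its brightest probe set, read 3245 in CD103+ Th1 and 1448 in Th1, a log2 ratio of 1.16 (2.24-fold). Its second set gave 2380 in CD103+ Th1 and 1101 in Th1, a log2 ratio of 1.11. The dim remaining set, at 132 in CD103+ Th1 and 111 in Th1, gave 0.25, and the mean over the 3 was 0.84, which is under 2-fold. Of all measured genes, 3.62% had a ratio as high as that of Bach2 or higher.

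Bcl6 rests on 1 probe set that was bright on 1 array alone. That set had 263 in CD103+ Th1 and 30.5, under the floor, in Th1, at least 3.36-fold higher. With the floor at the 25th percentile the log2 ratio was 3.11 in place of 1.75. The other Bcl6 probe set read 66.1 in CD103+ Th1 and 70.5 in Th1, under the floor on both arrays, and so did not show the difference. Prdm1 had 299 in CD103+ Th1 and 690 in Th1 on its only probe set, a log2 ratio of -1.21 (2.31-fold lower). Only 3.09% of measured genes had a ratio as low or lower. With the floor at the 75th percentile, 472, which lies above the CD103+ Th1 signal, the Prdm1 log2 ratio was -0.55. In this bulk RNA, fewer cells that express a gene and less RNA per cell cannot be told apart.

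Genes for relatives and partners of these repressors were mostly even. Mafk, which encodes a small MAF protein that pairs with BACH proteins, had 598 in CD103+ Th1 and 271 in Th1, 2.21-fold higher. Zbtb32, a BTB zinc finger repressor gene like Bcl6, was 2.06-fold lower on the 1 measured of 2 probe sets, at 954 in CD103+ Th1 and 1963 in Th1. Mafk and Zbtb32 were the only 2 of 14 measured genes of that list past 2-fold, and its median log2 ratio was 0.072. Over all measured genes 5.04% passed 2-fold upward and 4.87% downward. Bach1, the paralog of Bach2, had a log2 ratio of 0.10.

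Bach2 and Bcl6 are also expressed in B cells and Prdm1 in plasma cells, so markers of these cells were read beside them. Of 12 such markers, 8 were dimmer than the floor on both arrays, including Pax5, Ms4a1, Cd79a and Ebf1, and 3 were above it on each array. The summed signal of the 12 was 18335 in CD103+ Th1 and 15228 in Th1, and the median log2 ratio of the 4 measured was 0.81. Xbp1, which many cell types express, gave 10128 of the sum in CD103+ Th1 and 12282 in Th1, and the other 11 markers summed to 8206 in CD103+ Th1 against 2946 in Th1. Ighm, the immunoglobulin μ chain gene, was 3.16-fold higher in CD103+ Th1, with 4 measured probe sets between -0.53 and 1.84 on the log2 scale, and Cd79b at least 3.11-fold higher. The part of B-lineage RNA in the Bach2 and Bcl6 differences was not tested. All 10 named T cell markers were above the floor on both arrays, with 0 past 2-fold and a median log2 ratio of 0.22.

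The 2 inhibitor genes Id2 and Id3 pointed in opposite directions. Id2 had 6647 in CD103+ Th1 and 10919 in Th1 on its brightest probe set, a log2 ratio of -0.72 (1.64-fold lower). Its other sets gave -1.02 (4857 in CD103+ Th1 and 9839 in Th1) and -0.88 (472 in CD103+ Th1 and 872 in Th1). All 3 sets were thus lower in CD103+ Th1, by 1.64-fold to 2.03-fold. Among 915 measured genes with a mean signal within 2-fold of that of Id2, 5.79% had a ratio as low or lower. Id3, on its 1 probe set, had 983 in CD103+ Th1 and 493 in Th1, a log2 ratio of 0.99 (1.99-fold higher), just under the 2-fold threshold. It passed that threshold when the medians of the arrays were set equal, at 1.01. A ratio as high or higher was found in 4.62% of 4067 genes of similar signal.

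Id1, which encodes another protein of this family, followed Id3 rather than Id2, with 389 in CD103+ Th1 and 112 in Th1, 3.46-fold higher on 1 probe set. Id4 lay under the floor on all 3 of its probe sets. Of the genes for E proteins, the partners that ID proteins hold off DNA, Tcf4 was 2.72-fold lower, at 167 in CD103+ Th1 and 455 in Th1, with 5 measured probe sets between -1.65 and -0.72. Tcf3 and Tcf12 had log2 ratios of 0.16 and 0.48 on their brightest sets. The 3 Tcf3 sets ranged from -0.71 to 0.16 and the 5 Tcf12 sets from 0.42 to 0.56.

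Myb had the lowest ratio of the members. Its 3 probe sets had signals of 1043, 1129 and 325 in CD103+ Th1, against 3638, 2339 and 1262 in Th1. The log2 ratios were -1.80, -1.05 and -1.96, so that each set was at least 2-fold lower in CD103+ Th1. Fewer than 1 in 100 measured genes (0.992%) had a ratio as low as that of its brightest set or lower, and 0.448% of 3346 genes of similar signal. All 3 sets carry suffix letters, which mark probes that can match several transcripts. The letter was x on the brightest set and a on the other 2. No Myb probe set was therefore left when sets with suffix letters were dropped. Of the paralogs, Mybl1 had a log2 ratio of -0.19 and Mybl2 -0.36, with Mybl2 sets from -0.36 to 0.50.

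**Figure D2:**
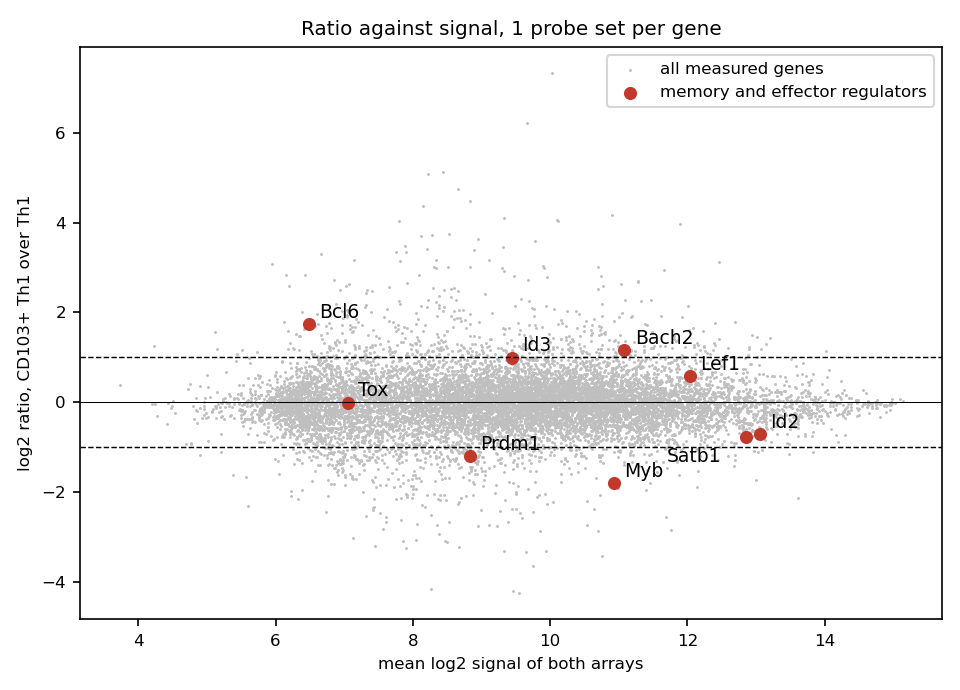
Log2 ratio of CD103+ Th1 over Th1 (vertical axis) against the mean log2 signal of both arrays (horizontal axis), 1 probe set per gene, for the 11194 measured genes (grey) and the 9 members (red, named). Dashed lines mark 2-fold. Bcl6 and Bach2 lie above the upper line, Id3 just under it, and Myb and Prdm1 below the lower one.

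Satb1, a chromatin organiser of thymocytes and T cells, was lower on its brighter probe sets. The brightest had 5685 in CD103+ Th1 and 9664 in Th1, a log2 ratio of -0.77 (1.70-fold lower). The next 2 sets agreed in direction, at -0.86 (3824 in CD103+ Th1 and 6928 in Th1) and -0.92 (954 in CD103+ Th1 and 1800 in Th1). The fourth set was even, with 1100 in CD103+ Th1 and 1067 in Th1, a log2 ratio of 0.045, and the fifth lay under the floor on both arrays, at 26.6 in CD103+ Th1 and 68.3 in Th1. The mean over the 4 measured sets was -0.62.

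Tox, which encodes a high-mobility-group factor, was dim in both cultures. Its 3 probe sets read 133, 128 and 127 in CD103+ Th1, against 133, 135 and 95.9 in Th1, all under 2 times the floor. The log2 ratios were -0.0049, -0.081 and 0.41, and this signal range gives little room to see a lower value. Tox2 and Tox3 were dimmer than the floor on both arrays, and Tox4 had a log2 ratio of 0.20.

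Other transcription factor genes tied to these T cell states leaned to higher values in CD103+ Th1. Of 34 measured, 11 passed 2-fold upward and 3 downward, against 5.04% and 4.87% of all measured genes. Their median log2 ratio was 0.49, against -0.027 over all genes. This list, like the lists of products below, was chosen with earlier results of these data known. Its lean is therefore not independent evidence. The highest of the list were Klf3 (13.4-fold on its brightest probe set), Ahr (at least 10.2-fold), Klf2 (6.17-fold) and Eomes (3.52-fold). Klf3 had 6 measured sets from -0.02 to 3.74 on the log2 scale, and Ahr had 1 measured of 2. Klf2 maintains the recirculation of naive and memory cells, and Eomes is a T-box factor of memory and cytotoxic cells. Batf3 was 7.27-fold lower, Hopx 2.44-fold lower and Tbx21, which encodes the effector factor T-bet, 2.14-fold lower. Foxo1, which encodes a factor that sustains naive and memory genes, had 3306 in CD103+ Th1 and 1601 in Th1, 2.07-fold higher, and was named after its value was seen.

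Products typical of naive and memory T cells also leaned to higher values. Of 18 measured genes 6 passed 2-fold upward in CD103+ Th1 and 2 downward, against 5.04% and 4.87% of all measured genes. The median log2 ratio of the 18 was 0.41, against -0.027 over all genes. Rgs10, which encodes a regulator of G-protein signalling, had 8987 in CD103+ Th1 and 1160 in Th1, 7.75-fold higher. The IL-6 receptor gene Il6ra was 5.66-fold higher on the brighter of 2 sets, and Cd27, a costimulatory receptor gene, and Treml2 were each 2.59-fold higher. Slamf6, a surface receptor gene often read with TCF-1, was 2.32-fold lower (3 sets from -1.21 to -0.16) and Tnfsf8, for CD30 ligand, 2.45-fold lower. The IL-7 receptor gene Il7r, a memory marker named after its value was seen, had a log2 ratio of -0.34.

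Products typical of effector T cells leaned the other way, with a median log2 ratio of -0.33. Of 24 measured genes 8 passed 2-fold downward in CD103+ Th1 and 3 upward, against 4.87% and 5.04% of all measured genes. The lowest were Ifng (10.8-fold), Anxa1 (7.33-fold), Prf1 (6.36-fold) and Ccr2 (5.23-fold, with 4 sets from -2.39 to -0.10). Gzma (8.78-fold), Cx3cr1 (at least 4.12-fold) and S100a4 (2.39-fold) were higher. Anxa1, Prf1 and Cx3cr1 each had 2 probe sets, of which only 1 was measured. Anxa1 encodes annexin A1, a phospholipid-binding protein, and S100a4 a calcium-binding protein of motile cells.

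Products of follicular helper T cells, the cells whose differentiation BCL6 directs, were lower in CD103+ Th1. Each of the 8 measured genes lay below 0 on the log2 scale, and the median was -1.02. Il21 and Pou2af1 were above the floor in Th1 alone, so their ratios are bounds. Pou2af1 read 17.6 in CD103+ Th1 and 95.2 in Th1, the latter close to the floor of 78.5. Of the 8, 4 passed 2-fold downward, against 4.87% of all measured genes. Btla was 3.44-fold lower, Sh2d1a, for the adaptor SAP, 2.56-fold, Cxcr4 2.25-fold and Il21 at least 2.09-fold, on the 1 measured of 2 Il21 probe sets. Cxcr5, the receptor that leads these cells into follicles, and Ascl2 lay under the floor on both arrays.

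**Figure D3:**
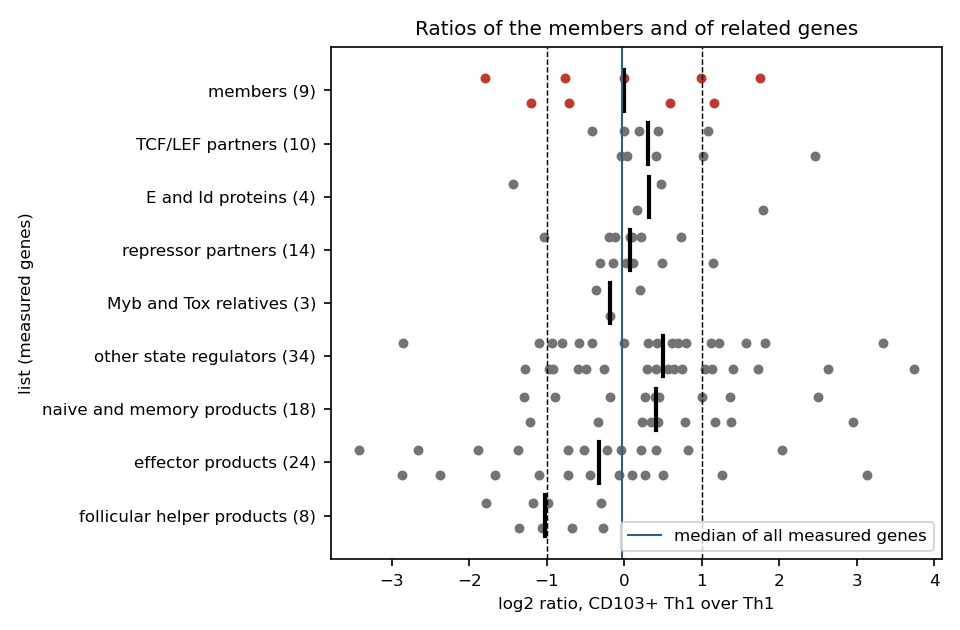
Log2 ratios of CD103+ Th1 over Th1 for the measured genes of the members (red) and of 8 lists of related genes (grey), 1 point per gene, with the median of each list as a black bar, the median of all measured genes as a blue line, and 2-fold as dashed lines. Medians lie at 0.49 for other state regulators, 0.41 for naive and memory products, -0.33 for effector products and -1.02 for follicular helper products.

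Markers of cells that could share the cultures differed too. Of 6 named markers of CD8 T cells, NK cells and innate lymphoid cells, 3 were above the floor on each array, with a summed signal of 4213 in CD103+ Th1 and 1566 in Th1. Cd8a had 2054 in CD103+ Th1 and 466 in Th1 on its brightest probe set, 4.41-fold higher, with 5 sets from 0.24 to 2.16 on the log2 scale. Cd8b1 had 1593 in CD103+ Th1 and 697 in Th1. For Cd4, the brighter of 2 sets had 1081 in CD103+ Th1 and 973 in Th1. Cd8b1 was 2.28-fold higher on its 1 set, whereas the NK markers Ncr1 and Klra8 were under the floor on both arrays. Of 10 myeloid and dendritic cell markers, 5 were above the floor in CD103+ Th1 and 3 in Th1, and the signals of all 10 summed to 1891 in CD103+ Th1 and 823 in Th1. Lyz2, Itgam, Itgax and Cd14 were dimmer than the floor in both cultures. H2-Aa was at least 10.2-fold and Mpeg1 at least 8.41-fold higher, and Cd68 2.25-fold lower. The part of other cells in the differences of the members was not tested.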

How the data were processed

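Total RNA of 2 cultures was hybridised to 1 Affymetrix array each. The deposited table holds 1 linear signal intensity per probe set and array, and GCOS, with no version, is named per the submitters' processing notes. For the scaling target, detection calls and filters, the sources used here give nothing. The 2% trimmed means were 498 on both arrays, so no further scaling was applied. Of 45037 probe sets, 34945 had 1 gene symbol, 932 several and 9160 none listed, per the platform annotation. Symbols were updated by gene identifier to RefSeq's GRCm38.p6 table (34741 matched).

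Log2 ratios were computed from the deposited intensity values with the floor described above (Python 3.11.15, numpy 2.4.6, pandas 2.3.3). The steps were tested on simulated data with large ratios planted in bright probe sets alone. Bounds and ratios near the floor were not covered by that check. The members, the 8 related lists, the 4 marker lists and the motifs were chosen with earlier results of these data known. Named were all members, and per related list up to 4 genes on each side past 2-fold (up to 4 in all per marker list). Genes cited as under the floor, as even, as neighbours or as paralogs were chosen after their values were seen, as were Ctnnb1 and Ctnnbip1. Promoter sequences are from RefSeq, with 9 members matched. Alternatives covered scaling, floor, pseudocount, choice of probe sets and threshold.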

Additional observations from a re-analysis of the deposited data

How the results depend on the processing

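Each member was recomputed under 3 scalings (medians, trimmed means or quantiles set equal), floors at the 25th or 75th percentile, a pseudocount of 21.2 without a floor, the mean of a gene's measured probe sets, and sets without suffix letters. Of 69 member ratios so obtained, 66 stayed on the same side of 2-fold with the sign kept where 2-fold was passed. Bach2 left it with the mean of probe sets (0.84 on the log2 scale) and Prdm1 with the higher floor (-0.55), and Id3 entered it with medians set equal (1.01). The other members ranged from 1.71 to 3.11 for Bcl6, -1.83 to -1.60 for Myb, 0.44 to 0.63 for Lef1, -0.88 to -0.64 for Id2, -0.77 to -0.62 for Satb1 and -0.035 to 0.11 for Tox. Without suffix letters Myb had no probe set, and with the higher floor Bcl6 and Tox had no measured one.

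Counts of members past 2-fold, 2 higher and 2 lower, became 1 and 1 with the higher floor (median -0.55), 1 higher with the mean of probe sets, and 1 lower without suffix letters (median 0.29). They were 4 and 4 at 1.5-fold and 0 and 0 at 4-fold. With the higher floor, counts of related genes were 1 higher for TCF/LEF partners, 0 and 0 for E and Id proteins, 0 higher for repressor partners, 1 lower for naive and memory products and 4 lower for effector products, and the follicular helper median was -1.26. With the lower floor, 5 other state regulators were lower. With the pseudocount, 1 Myb or Tox relative was lower. With the mean of probe sets, medians were 0.089 for E and Id proteins, 0.068 for Myb and Tox relatives and 0.64 for naive and memory products. Without suffix letters, 0 E or Id proteins were higher, 0 repressor partners lower and 1 naive or memory product lower. At 1.5-fold, 2 repressor partners were higher and 9 other state regulators lower. At 4-fold, 1 TCF/LEF partner, 3 other state regulators and 2 naive and memory products were higher, 1 other state regulator and 4 effector products were lower, and counts were 0 for E and Id proteins, repressor partners, and lower naive, memory and follicular helper products. Over all genes, 974 were higher and 1206 lower with the lower floor, 267 higher and 199 lower with the higher one, 1391 and 1499 at 1.5-fold, and 108 and 86 at 4-fold. The causes were not tested, apart from the floors and thresholds themselves. Low signals limit Tox, Bcl6 and the third Bach2 set. No paired analysis was possible because each group has 1 array.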

Other observations

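Genes nearest to the members on their chromosomes were read as well. These were the nearest 2 protein-coding genes with a named probe set on each side in the GRCm38.p6 gene table. Gaps to the member ran from 9.06 kb to 3271 kb, so genes called "beside" a member below need not adjoin it. Of 36 such neighbours 24 were measured, 1 passed 2-fold upward in CD103+ Th1 and 2 downward, and the median log2 ratio was -0.17. Among all measured genes 5.04% passed 2-fold upward and 4.87% downward, so these counts are near the background. The neighbours pointed with and against their members. Beside Myb, 135 kb away, Hbs1l, which encodes a translation factor relative, was 2.46-fold lower, at 1076 in CD103+ Th1 and 2649 in Th1. On the other side of Myb, Ahi1 was 1.53-fold lower, with 360 in CD103+ Th1 and 551 in Th1. Beside Prdm1, 539 kb away, Prep, which encodes prolyl endopeptidase, was 3.78-fold lower, with 1043 in CD103+ Th1 and 3944 in Th1. Atg5 and Crybg1, on the other side of Prdm1, had log2 ratios of -0.12 and -0.55. Beside Bcl6, 351 kb away, Rtp4, an interferon-induced gene, had 2109 in CD103+ Th1 and 77.6 in Th1, at least 26.9-fold higher. Lpp on the other side of Bcl6 had a log2 ratio of 0.15. Beside Bach2, Casp8ap2 had a log2 ratio of 0.50 and Map3k7 one of -0.50. Beside Id3, E2f2 had 0.61, Rpl11 -0.16 and Eloa -0.15. Beside Lef1, which was higher in CD103+ Th1, Ostc had -0.44 and Hadh -0.60. Beside Id2, which was lower, Rnf144a had 0.82, Rsad2 0.85, Mboat2 0.078 and Kidins220 -0.12. Beside Satb1, Tbc1d5 had 0.19 and Plcl2 -0.24, and beside Tox, Nsmaf had -0.99, Sdcbp -0.18 and Rab2a -0.37, with Car8 at most -0.34. Each value comes from 1 array per condition, and shared regulation was not tested.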
